A study of Mus musculus with 8 samples.

Results

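Broad MOF peaks are described here: 1231 of the 17546 peaks of a MOF list from newborn mouse epidermis. This list holds more peaks than the study counts for MOF, and the counts and shares below are those of this list. They were chosen by their measured width, 1500 bp or more, together with an overlap of at least 1 bp with an H3K4me3 peak and with an H3K27ac peak, on chromosomes 1 to 19. They made up 7.12% of the 17287 MOF peaks on those chromosomes (95% exact interval 6.74 to 7.51%), 20.5% of the 6006 that carried both marks and 66.1% of the 1861 that were wide enough. The other 4775 peaks with both marks were under 1500 bp and are called ordinary below. All libraries were from wildtype mice at postnatal day 0.5, from total epidermis that had been lifted with dispase and trypsinized to single cells. MOF was mapped by ChIPseq on fixed, sheared chromatin, and H3K4me3, H3K27ac and the transcription factor Rfx2 by Cut&Run, in which an antibody guides a nuclease. Each antibody had 1 peak list here, so no value has a replicate error and each describes these libraries. Intervals cover only the counting error over peaks or genes. The number of animals per library was not given in the sources used here.

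MOF (KAT8) is the acetyltransferase that places acetyl groups on lysine 16 of histone H4, and works within the NSL and MSL protein complexes. H3K4me3 marks the starts of active genes, and H3K27ac marks active promoters and enhancers. Most mammalian housekeeping genes start in a CpG island, a stretch of DNA that has kept its CpG dinucleotides, whereas the immediate-early genes, which answer stress and growth signals within minutes, are mostly short genes read by factors such as SRF, CREB and AP-1.

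The upstream DNA of 4 of the short genes with the widest members is shown first, because at Btg2, Jun and Zfp36 the MOF peak lay wholly on the gene side of the transcription start site (TSS). Each sequence is the 200 bases before the TSS, read 5′ to 3′ on the strand of the gene, from the RefSeq assembly GRCm38.p6 (mm10). Capitals mark matches, on either strand, to a cyclic AMP response element (TGACGTCA) or the CArG box of SRF. Matches to TATAAA, the CCAAT element CCAATCAG, the GC box CCCCGCCCC and the ETS motif CCGGAAGT were also searched and were not found there.
Btg2, chr1:134079156-134079355, minus strand: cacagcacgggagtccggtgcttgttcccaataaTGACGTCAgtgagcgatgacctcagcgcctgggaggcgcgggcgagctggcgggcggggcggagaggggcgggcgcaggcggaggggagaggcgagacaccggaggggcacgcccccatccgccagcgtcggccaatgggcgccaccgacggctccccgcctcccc
Ier2, chr8:84662853-84663052, minus strand: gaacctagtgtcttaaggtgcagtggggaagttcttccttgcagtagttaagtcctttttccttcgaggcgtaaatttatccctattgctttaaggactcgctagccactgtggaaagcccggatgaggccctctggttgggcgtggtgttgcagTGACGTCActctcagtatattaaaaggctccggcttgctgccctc
Jun, chr4:95052223-95052422, minus strand: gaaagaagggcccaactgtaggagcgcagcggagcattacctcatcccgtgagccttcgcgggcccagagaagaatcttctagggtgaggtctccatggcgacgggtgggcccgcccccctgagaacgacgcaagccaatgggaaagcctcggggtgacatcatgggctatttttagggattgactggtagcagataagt
Zfp36, chr7:28379229-28379428, minus strand: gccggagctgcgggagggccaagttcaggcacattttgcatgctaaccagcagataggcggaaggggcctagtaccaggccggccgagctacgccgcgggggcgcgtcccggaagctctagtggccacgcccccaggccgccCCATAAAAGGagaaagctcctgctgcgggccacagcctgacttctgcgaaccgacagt
The CArG match began 58 bases before the TSS at Zfp36. The response element began 45 bases before the TSS at Ier2 and 166 bases before it at Btg2. The stretch before Jun held none of the motifs. Among 25748 promoters of the RefSeq table (250 bases before to 50 after the TSS), a CArG box was found in 1.51% and TGACGTCA in 1.92%. A match is a description of the letters, not a bound site.

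Other members lay across the TSS. The same 200 bases are shown for the widest members of a list of splicing factors (Hnrnpl, U2af2) and the widest of a list of chromatin modifiers (Kmt2c), all 3 inside the MOF peak. Capitals here mark each CpG dinucleotide.
Hnrnpl, chr7:28810690-28810889, plus strand: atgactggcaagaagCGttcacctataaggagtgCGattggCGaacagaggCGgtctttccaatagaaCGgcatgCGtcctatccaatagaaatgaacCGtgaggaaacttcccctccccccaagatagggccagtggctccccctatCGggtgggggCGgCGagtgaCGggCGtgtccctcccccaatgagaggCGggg
U2af2, chr7:5061943-5062142, plus strand: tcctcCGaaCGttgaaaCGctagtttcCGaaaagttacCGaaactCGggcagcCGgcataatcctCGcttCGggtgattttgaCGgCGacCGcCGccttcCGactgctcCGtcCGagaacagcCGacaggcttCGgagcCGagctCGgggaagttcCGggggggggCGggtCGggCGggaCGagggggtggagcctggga
Kmt2c, chr5:25498784-25498983, minus strand: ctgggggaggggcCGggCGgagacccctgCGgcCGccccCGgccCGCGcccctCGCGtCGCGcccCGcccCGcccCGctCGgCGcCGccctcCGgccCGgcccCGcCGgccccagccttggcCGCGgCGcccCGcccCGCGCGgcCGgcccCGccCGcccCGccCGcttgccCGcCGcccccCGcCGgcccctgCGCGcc
They held 13 CpGs at Hnrnpl, 25 at U2af2 and 39 at Kmt2c. The 4 stretches of the first set held 7 at Ier2, 11 at Jun, 16 at Zfp36 and 24 at Btg2. These 7 sequences were picked for width and cannot stand for all members.

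Width, score and marks chose the members or came from the same lists, so they are given without a test. Members were 1501 to 6006 bp wide, with a median of 1826 bp and a middle 50% from 1646 to 2108 bp. Ordinary peaks had a median of 823 bp. Of the members, 499 (40.5%) were under 1750 bp and 33 (2.68%) were 3000 bp or more. Greater width did not go with a higher MOF score, the caller's score per peak, whose scale was not stated. Its median was 648 for members and 651 for ordinary peaks. Inner blocks, the narrower stretches that the list gives inside a peak, summed to a median of 350 bp in members and 322 bp in ordinary peaks, or 19.1% and 47.2% of the peak. Over all 6006 marked peaks, their summed length had a Spearman correlation of 0.20 with MOF width. Members had 1 inner block in 987 cases, 2 in 219, 3 in 24 and 5 in 1, which was Actb.

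Among the members nearest to the width limit were 1501 bp at Rrp1 and 1502 bp at Rnf138. Just below it lay peaks of 1499 bp at the Rnf34 and Gm33044 promoters, 1499 bp at Pafah2 and 1498 bp at Cpeb4. The 114 members under 1550 bp and the 118 ordinary peaks of 1450 bp or more had median MOF scores of 650 and 644. A promoter was overlapped by 82.5% of the former and 85.6% of the latter. The limit of 1500 bp therefore cuts a continuous range of widths.

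H3K4me3 was longer but lower under the members. The strongest H3K4me3 peak over a member had a median width of 1552 bp and a median fold enrichment of 6.91, against 1283 bp and 8.23 for ordinary peaks. For H3K27ac these were 1019 bp and 6.47 against 871 bp and 6.91. H3K4me3 covered a median of 75.4% of a member and H3K27ac 56.0%, against 100% and 84.4% of an ordinary peak, a share that falls with width by construction. More than 1 H3K4me3 peak was overlapped by 243 members (19.7%) and more than 1 H3K27ac peak by 264 (21.4%). The lowest overlap with H3K27ac, 0.0818% of the peak, was at Iqcn, so a few bases of overlap were enough to admit a member. Across all 6006 marked peaks, MOF width had a Spearman correlation of 0.30 with H3K4me3 width, -0.16 with H3K4me3 fold enrichment and 0.02 with MOF score. These are descriptions over peaks of the same libraries.

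**Figure D1:**
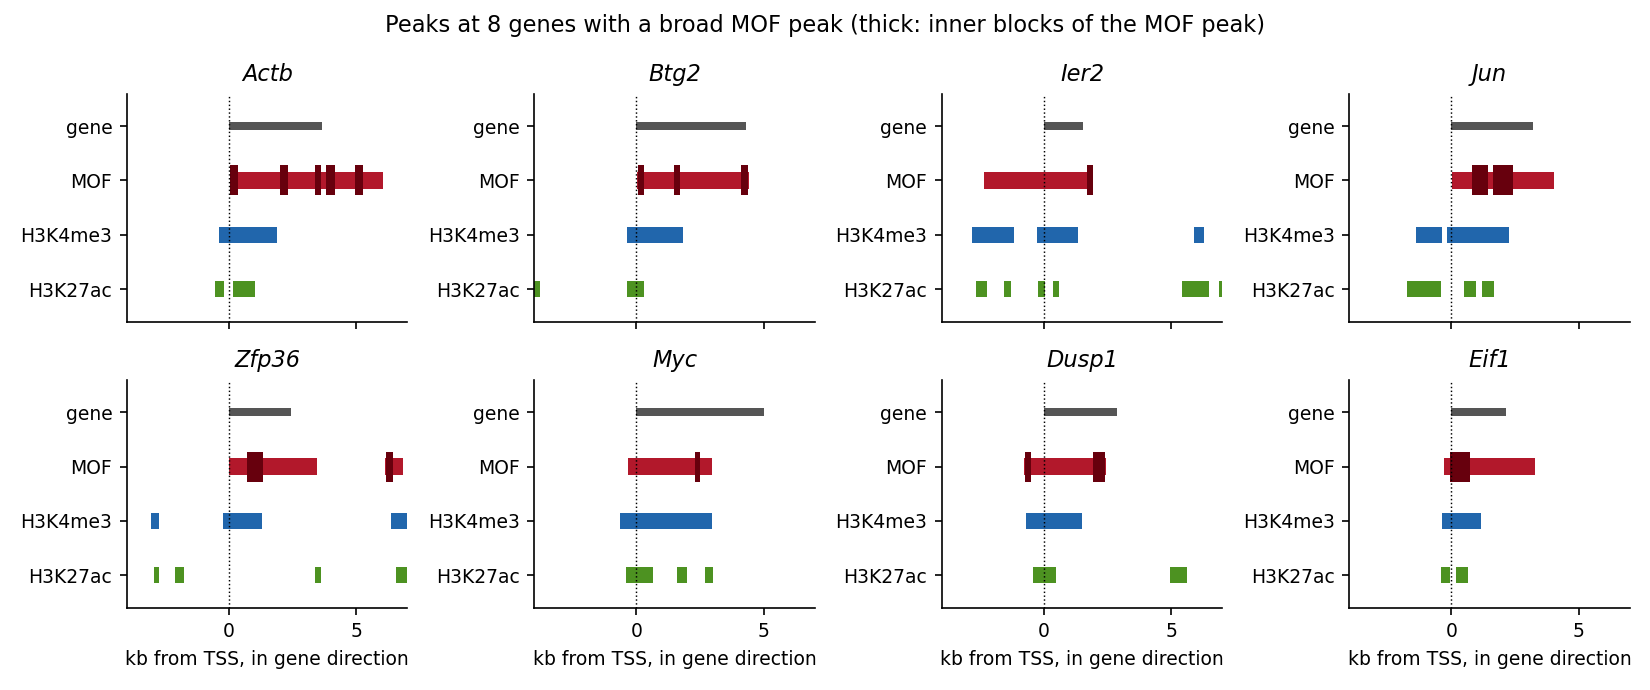
Peak positions at 8 genes with a broad MOF peak, in kb from the TSS in the direction of the gene, between 4 kb before and 7 kb after it. Red bars are MOF peaks with their inner blocks thick and dark, blue bars H3K4me3, green bars H3K27ac and grey bars the gene. At Actb, Btg2, Jun and Zfp36 the MOF peak starts at or after the TSS and ends beyond the gene's end, while H3K4me3 stops inside the gene.

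The widest member, 6006 bp, covered nearly the whole of Actb, the gene of beta-actin, at chr5:142900719-142906724. It began 30 bp after the TSS and ended beyond the end of the 3640 bp gene. H3K4me3 covered 31.1% of it and H3K27ac 14.1%. Btg2, an antiproliferative immediate-early gene of 4291 bp, had a member of 4396 bp that began 36 bp after the TSS and held 3 inner blocks. H3K27ac covered 6.12% of it. Jun, an AP-1 subunit gene of 3187 bp, had a member of 3985 bp that began 28 bp after the TSS, with a MOF score of 2351. At Zfp36, which encodes an mRNA decay factor, a member of 3434 bp began 1 bp after the TSS, and H3K27ac covered 2.24% of it. Ier2 differed from these, since its member of 4268 bp reached 2343 bp before the TSS and 1925 bp after it, over a gene of 1522 bp. Its H3K4me3 fold enrichment was 2.97.

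The other widest members were of several kinds. Tsc22d1 had 4669 bp with its centre in an intron, and Mex3b, an RNA-binding protein gene, 3617 bp with its centre in an exon. A member of 3978 bp at Gatd1 lay almost wholly before the TSS (3728 bp before, 250 bp after). A member of 3667 bp at the Iqcn promoter also overlapped the end of Jund, another AP-1 gene. At the pseudogene Pisd-ps2 the member was 3964 bp wide, and 54.8% of the 31-base stretches in it had another copy in the assembly, so that short reads from it can match elsewhere. The second widest, 5703 bp at chr17:39843066-39848768, held the ribosomal RNA pseudogene Rn18s-rs5, 101752 bp from the nearest TSS. It had a MOF score of 8577, and its inner blocks filled 5426 bp.

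Of the 685 members that had the start of just 1 gene in or within 250 bp of the peak, 16 reached the end of that gene. Length was taken from that start to the farthest end of the curated transcripts that begin there, and was 384 to 4291 bp. For H2bc6 this was a short transcript of 445 bp, while others of the gene begin elsewhere and are longer. The 16 genes were Actb, Btg2, Ier2, Jun, Zfp36 and Junb, the translation initiation factor gene Eif1, the autophagy gene Map1lc3a, the glutathione peroxidase gene Gpx1, Sox15, Ost4 and the histone genes H1f2, H2ax, H4c14, H2bc6 and H4f16. At Actb, Btg2, Jun, Zfp36, Junb and Gpx1 the peak began after the TSS, by 30, 36, 28, 1, 136 and 80 bp. The first bases of these genes lay outside it. Among 2687 ordinary peaks of this kind 7 reached the end of the gene, and the longest of these genes was 899 bp. A wider peak can hold a longer gene, so the counts are not compared by a test. The Junb member (2910 bp) began 136 bp after the TSS and so lay outside the promoter window used below.

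The 4 highest MOF scores among members were not at promoters. A score of 51795 was found at chr15:75085453-75087043, 24894 bp from the start of Ly6c2, then 8598 at chr9:123924317-123926289, 42403 bp from the start of Ccr1, 8577 at the Rn18s-rs5 locus and 7567 at chr2:181917414-181919135, 34057 bp from Gm40035. The fifth, 2963, was at the promoter of the splicing factor gene Srsf7. Repeated 31-base stretches made up 40.9% of the first, 38.1% of the second, 14.9% of the third and 25.7% of the fourth, where the median member had 0.220%. Their part in the scores was not tested. Over all members, 2 had more than 50% repeated stretches, the histone pair H2ac18 and H3c14 (89.0%) and Pisd-ps2, against 40 ordinary peaks. Of the 630 broad peaks without both marks, 127 had.

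Position relative to genes did not enter the rule and was compared with ordinary peaks. A promoter was taken from 1 kb before to 100 bp after the TSS of a curated RefSeq transcript. The centre of 599 of 1231 members lay in a promoter (48.7%, 45.8 to 51.5%), against 2299 of 4775 ordinary peaks (48.1%). The difference of 0.513 percentage points had a 95% Newcombe interval from -2.61 to 3.64, so none was detectable. Exons held 13.1% of member centres, introns 28.1% and the intergenic space 10.2%. Introns were more frequent by 2.93 points (0.193 to 5.78) and intergenic centres less frequent by 2.62 points (interval of the difference -4.47 to -0.589). The window ended 100 bp after the TSS, while the centre of a wide peak lay farther from the TSS. Width thus bears on these classes by construction. The promoter result depended on the width, the window and the overlap required. For peaks of 2000 bp or more the difference turned to -4.59 points (-9.56 to 0.496), and with the 50% most significant peaks of each mark to -2.09 points (-5.59 to 1.38). With 1 kb on either side, 79.9% of members were at a promoter and the difference was 3.85 points (1.24 to 6.32). Where each mark had to cover 50% of the MOF peak it was 5.84 points (1.79 to 9.81). Any overlap with a promoter was found for 83.7% of members and 72.7% of ordinary peaks, 10.9 points apart (8.44 to 13.3), to which width adds by construction. Over 2.5 kb from any TSS lay 13.9% of members and 21.3% of ordinary peaks, a difference of -7.45 points (-9.62 to -5.11), to which the greater span adds by construction. Of the centres of broad peaks without both marks, 4.29% lay in a promoter, a gap that the choice of members by H3K4me3 goes far to fix.

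Members were chosen for width, so their longer reach around the TSS, and past the marks, follows from the rule and is given as a description. For the 685 members with 1 gene start, the median was 715 bp before and 1127 bp after the TSS, against 312 and 472 bp for 2687 ordinary peaks. The part after the TSS made up a median of 61.3% of the peak in members and 60.4% in ordinary peaks. It was the larger part in 66.4% of members and 62.6% of ordinary peaks, a difference of 3.79 points whose interval (-0.258 to 7.69) included 0. At 1 kb before the TSS, MOF covered 31.2% of the member loci, H3K4me3 14.5% and H3K27ac 10.5%. At 1 kb after it, the values were 60.0%, 65.5% and 24.8%. MOF ran past H3K4me3 before the TSS in 57.4% of members and after it in 40.1%. In ordinary peaks it did so in 30.7% and 7.78%.

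**Figure D2:**
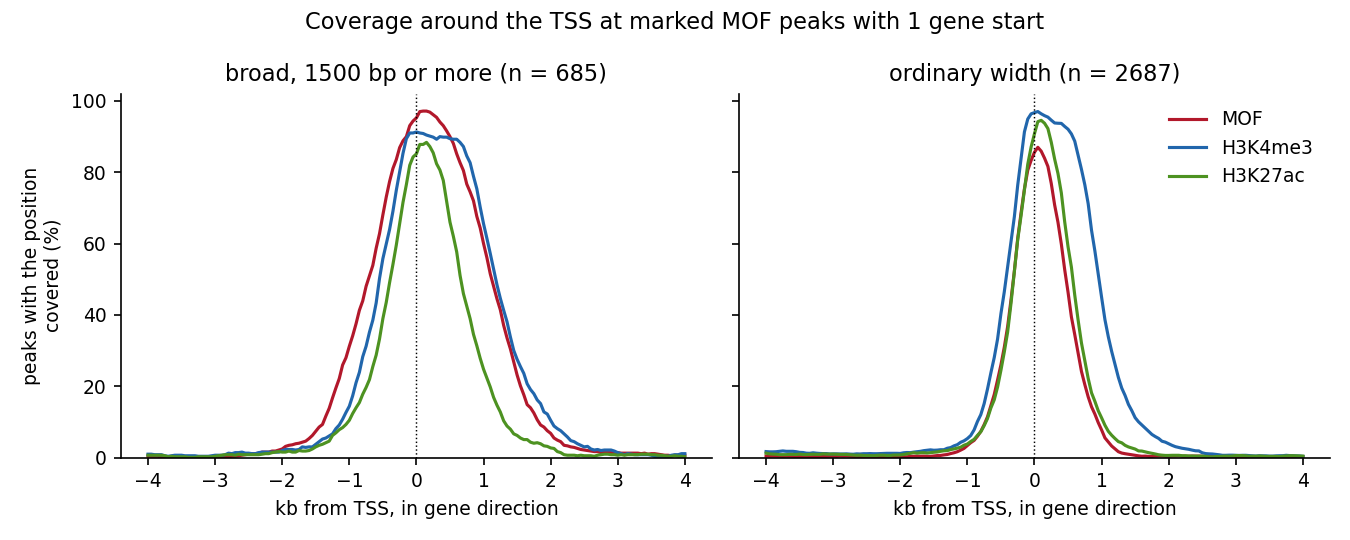
Share of loci (%) at which each position around the TSS is covered by a peak, against distance in kb in the direction of the gene, for 685 broad members (left) and 2687 ordinary peaks (right) with 1 gene start. Lines are MOF (red), H3K4me3 (blue) and H3K27ac (green). In the broad set MOF lies outside H3K4me3 before the TSS (31.2% against 14.5% at 1 kb), and H3K27ac is the narrowest.

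Longer CpG-rich runs lay at the TSS of members than at that of ordinary peaks. Runs were built at the TSS from 200 bp windows with at least 50% GC and a ratio of observed to expected CpG of at least 0.6, within 5 kb of the TSS and so without regard to the MOF peak. A run was found at 96.2% of the 685 members and 96.7% of the ordinary peaks. Its median length was 1195 bp at members and 942 bp at ordinary peaks. Runs of 1500 bp or more were found at 195 members (28.5%, 25.1 to 32.0%) and 252 ordinary peaks (9.38%, 8.30 to 10.5%), a difference of 19.1 points (15.6 to 22.7). With 55% GC and a ratio of 0.65, criteria chosen after seeing the data, the difference was 11.9 points (9.22 to 15.0). The median run, loci without one included, was 1112 bp in members under 1750 bp, 1184 bp up to 2000 bp, 1246 bp up to 2500 bp and 1449 bp up to 3000 bp. In the 23 widest members with 1 gene start, from 3000 bp, it was 1205 bp. The GC content of the central 500 bp had a median of 59.8% in both sets. By the same criteria, 748 members (60.8%) and 64.4% of ordinary peaks had a CpG-rich central 500 bp, a difference of -3.68 points (-6.74 to -0.658). Its sign turned around the H3K4me3 summit (1.75 points, -1.26 to 4.69) and in annotated promoters (1.59 points, -1.19 to 4.21), with intervals that included 0. It turned to 5.59 points where each mark had to cover 50% of the MOF peak, and with the 50% of MOF peaks of highest score it was -3.46 points (-7.35 to 0.315).

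**Figure D3:**
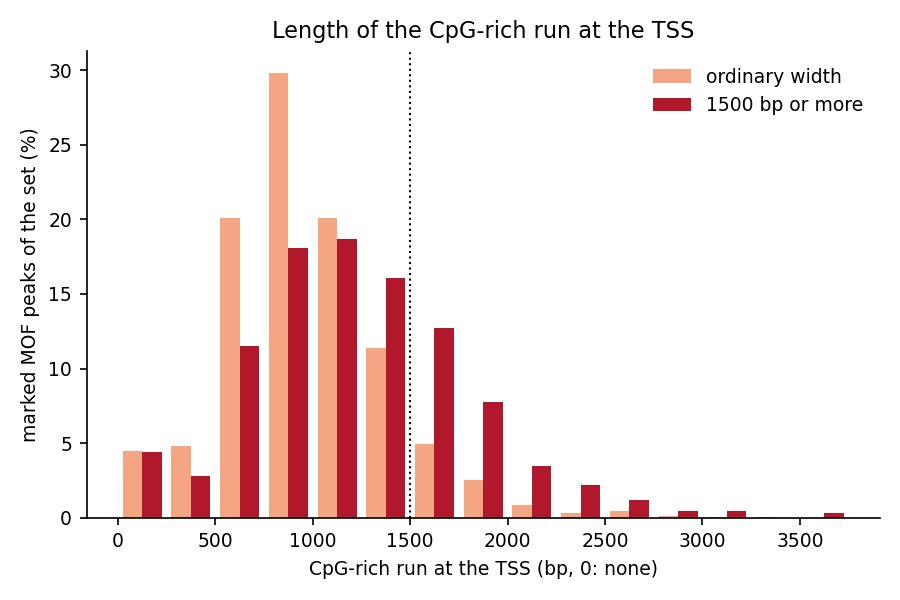
Length in bp of the CpG-rich run at the TSS (x axis, in classes of 250 bp, 0 where none was found) for 685 broad members (red) and 2687 ordinary MOF peaks (orange), as a share of each set (%). The dotted line marks 1500 bp, which was reached at 28.5% of members and 9.38% of ordinary peaks.

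Motifs were counted in 3 windows, since the centre of a wide peak is farther from the TSS. In the central 500 bp the ETS motif CCGGAAGT was present in 61 members (4.96%) and 426 ordinary peaks (8.92%), a difference of -3.97 points (-5.33 to -2.40). The NRF1 motif GCATGCGC was present in 3.01% and 5.40% (difference -2.40 points, -3.46 to -1.13, but -0.955, -2.60 to 1.51, for peaks of 2000 bp or more), and the E-box CACGTG in 9.50% and 12.4% (-2.91 points, -4.71 to -0.929). The E-box difference was -0.653 points (-2.58 to 1.45) around the strongest H3K4me3 summit and -1.35 points (-3.30 to 0.806) in annotated promoters. ETS factors and NRF1 act at many housekeeping and mitochondrial gene promoters. Around the strongest H3K4me3 summit the differences were smaller, -1.71 points (-3.28 to 0.0514) for ETS and -0.943 (-2.11 to 0.439) for NRF1. In annotated promoters of 300 bp, matched for 1076 of 1288 genes with a member and 3388 of 4077 with ordinary peaks only, they were -2.43 (-4.43 to -0.228) and -2.41 points (-3.92 to -0.678). There the GC box CCCCGCCCC was present in 24.9% and 21.3% (3.66 points, 0.793 to 6.65), but at the MOF centre it did not differ detectably (-0.0836 points, -2.42 to 2.41). Of all promoters, ETS was found in 4.08%, NRF1 in 2.80% and the GC box in 11.8%. The X-box of RFX factors was rarer at members in each window, in 0.406% against 1.72% at the MOF centre (-1.31 points, -1.78 to -0.676), in 0.731% against 1.72% at the H3K4me3 summit and in 0.743% against 2.01% of promoters. TATAAA was more frequent at the MOF centre alone (10.3% against 7.98%, difference 2.34 points, 0.568 to 4.30). A p53 family element was found there in 2 members and 0 ordinary peaks. For the YY1, NF-Y, response element, ZNF143, AP-1 and CArG motifs the intervals included 0 in all 3 windows. In all, 54 differences were computed with the main settings, and further ones under the alternatives. The intervals are not adjusted for their number.

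**Figure D4:**
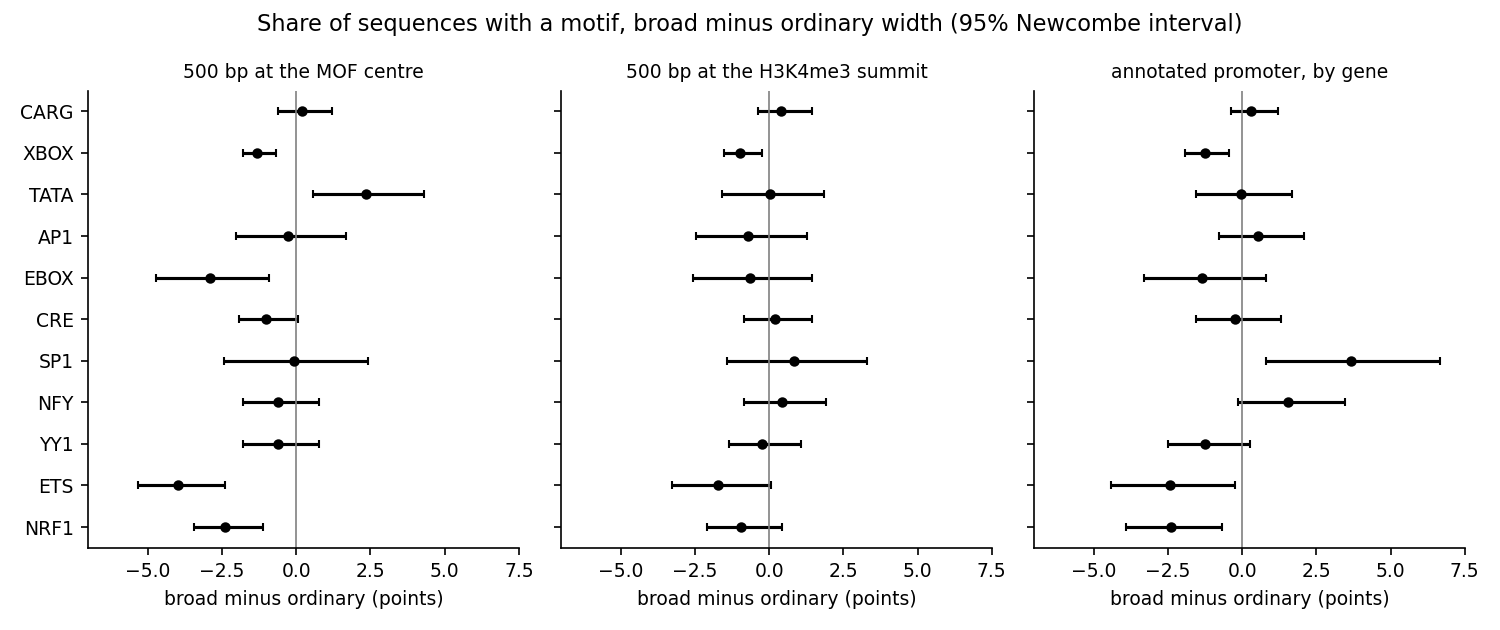
Difference in the share of sequences with a motif, members minus ordinary MOF peaks, in percentage points (x axis) with 95% Newcombe intervals (bars), for 11 motifs in 3 windows. ETS and NRF1 lie below 0 at the MOF centre and in annotated promoters, and the X-box lies below 0 in each window.

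Paired promoters, from which genes start in opposite directions within 1 kb, were at the nearest TSS of 200 of the 1049 members within 1 kb of one (19.1%, 16.7 to 21.6%). Ordinary peaks had 555 of 3687 (15.1%), a difference of 4.01 points (1.46 to 6.74). With the starts at most 500 bp apart it was 1.76 points (-0.604 to 4.32), and for peaks of 2000 bp or more 1.99 points (-1.86 to 6.51), so the difference was not detectable there. In all, 770 members overlapped the promoter of 1 gene, 257 of 2, 3 of 3 and 201 of none.

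Rfx2, which binds the X-box at ciliary genes, had a peak over 43 members (3.49%, 2.54 to 4.68%) and 125 ordinary peaks (2.62%). The difference of 0.875 points (-0.141 to 2.13) was not detectable. It was 1.52 points (0.0999 to 3.38) where each mark had to cover 50% of the MOF peak. Width adds to both differences by construction, since a wider peak has more room to overlap an Rfx2 peak. Within the central 500 bp, Rfx2 summits were found in 0.894% of members, and the difference turned to -0.824 points (-1.39 to -0.0497). In fixed promoter windows, 47 of 1288 genes with a member (3.65%) and 152 of 4077 with ordinary peaks only (3.73%) had Rfx2. The highest Rfx2 fold enrichments at members were 15.9 at Rnf126, 15.6 at Rap2a, 14.2 at Rfx1, which encodes another RFX factor, 13.7 at the phosphatase gene Dusp1 and 11.1 at the locus near Ly6c2 that had the highest MOF score.

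Genes were then counted by function. A member overlapped the promoter of 1288 genes, 1175 of them protein-coding. Of 13412 genes with H3K4me3 at the promoter, 1283 had a member (9.57%) and 4062 had ordinary MOF peaks only (30.3%). Of the 5345 genes with either, 24.0% had a member. Per chromosome, 6.90 to 11.9% of genes with H3K4me3 had a member. The gene lists below were chosen with results of these data known, so their counts are descriptions beside these shares.

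Immediate-early genes had the highest share by the rule, but not under every alternative. A member was at the promoter of 17 of 43 (39.5%), and 4 more, Nfkbia, Nfkbiz, Socs3 and Csrnp1, had ordinary peaks, so that 81.0% of those with a marked MOF peak had a broad one. Beside the genes above these were Myc (3299 bp), the growth factor target Ccn1 (2688 bp, beginning 36 bp after the TSS), Klf6 (2973 bp), Dusp1 (3223 bp), Maff, Rhob, Egr2, Ier3, Btg1, Zfp36l1, Ier5, Ier5l and Mcl1 (1504 bp). Their members had a median width of 2374 bp, and H3K4me3 covered a median of 65.1% and H3K27ac 23.8% of them. Over all 1030 members at a promoter these medians were 79.0% and 58.6%. The 14 with 1 gene start ran to a median of 2082 bp after the TSS, or 77.9% of the gene's length, and 348 bp before it. At all members at a promoter they ran to 4.28% of the gene's length, with medians of 1120 bp after the TSS and 23333 bp for the gene. The 14 immediate-early genes had a median length of 3228 bp. The median CpG-rich run at the immediate-early members was 1585 bp. Requiring each mark to cover 50% of the MOF peak left 9.30% of immediate-early genes with a member, against 24.6% of chromatin modifiers and 6.18% of all genes with H3K4me3. The share of splicing factors was higher there too (interval 20.5 to 43.1%). With only the 50% most significant peaks of each mark, the share was 25.6% for immediate-early genes, 33.8% for splicing factors and 28.1% for chromatin modifiers.

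Genes of RNA processing and chromatin followed, with members that covered less of the gene. Their genes were longer, with medians of 13838 bp for splicing and 72790 bp for chromatin (members with 1 gene start). Splicing factors and hnRNPs, which bind messenger RNA precursors and guide their splicing, had a member at 24 of 71 promoters (33.8%) and ordinary peaks at 35. The widest were at Hnrnpl (3015 bp) and U2af2 (2601 bp). Srsf1, Srsf2, Srsf4, Srsf7 and Srsf10 and the hnRNP genes Hnrnpa1, Hnrnpa2b1, Hnrnpa3, Hnrnpab, Hnrnpd, Hnrnpf, Hnrnph1 and Hnrnpk were among them. H3K4me3 covered a median of 95.9% of these members and H3K27ac 81.6%, and the median CpG-rich run was 1590 bp (11 members with 1 gene start). Chromatin modifiers had a member at 17 of 57 promoters (29.8%), among them the methyltransferase genes Kmt2c (2611 bp), Kmt2a and Setd1a, the remodeller gene Chd1 (2526 bp), the acetyltransferase genes Ep300, Kat6a and Kat7, the demethylase genes Kdm2a and Kdm3a, and the Polycomb genes Ezh2, Eed and Suz12. These lay across the start, with medians of 994 bp before and 914 bp after the TSS in 12 members, which was 1.25% of the gene's length. Their median CpG-rich run was 1793 bp. With a width of 2000 bp or more, 11.3% of the splicing list and 7.02% of the chromatin list had a member, where all genes with H3K4me3 had 3.09%.

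Translation factors had a member at 12 of 44 promoters (27.3%), led by Eif1 (3602 bp) and the helicase gene Eif4a1 (2639 bp). Replication-dependent histone genes had 14 of 58 (24.1%), but the widest members of these 14 genes were 9 peaks, and H2bc6 had another at a second start (1641 bp). The widest were at H4c11 (2822 bp) and H1f2 (2342 bp), and the repeated share of 31-base stretches in these members ran from 0.126% at H4f16 to 89.0% at H2ac18 and H3c14. Of the MOF complexes, 2 of 10 had a member, Mcrs1 (2409 bp) and Kansl1 (1777 bp), both of the NSL complex. Small nucleolar RNA host genes had 3 of 16, Snhg6 (2496 bp), Snhg12 and Gas5, and 12 with ordinary peaks. Centrosome genes had 8 of 48 (16.7%), with Cep57 and Odf2 widest.

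In other lists fewer promoters had a member. Electron transport chain genes had a member at 6 of 73 promoters (8.22%, 3.08 to 17.0%) and ordinary peaks at 44 (60.3%), so 6 of the 50 with a marked MOF peak had a broad one. The share was 1.37% for peaks of 2000 bp or more, where all genes had 3.09%, 1.37% for the 50% of MOF peaks of highest score, where all had 6.05%, and 4.11% where each mark had to cover 50% of the peak. The 6 were Ndufv3 (2060 bp), Ndufa13 (1923 bp), Ndufa11, Cox8a, Ndufs3 and Uqcrh. Proteasome subunits had 2 of 32, Psmb2 (1790 bp) and Psmd11 (1528 bp), and 19 with ordinary peaks. Mitochondrial ribosomal proteins had 10 of 78 (12.8%), with Mrps18c (2293 bp) and Mrpl40 (2197 bp) widest, and 46 with ordinary peaks. Cytosolic ribosomal proteins had 11 of 75 (14.7%), with Rpl11 (3029 bp) and Rpl41 (2555 bp) widest, and 43 with ordinary peaks. Ciliary genes had 6 of 63 (9.52%), close to the share of all genes, and the widest were at Tmem216 (1752 bp) and Ift20 (1688 bp). DNA repair genes had 4 of 65, with Fancd2 (1855 bp) and Fance (1767 bp) widest. Replication and cell cycle genes had 4 of 62, led by the kinase gene Wee1 (2418 bp) and E2f3 (2255 bp). The developmental pathways Wnt, Notch and hedgehog had 4 of 47, led by Rbpj (2601 bp) and Gsk3b (2433 bp).

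Epidermal lineage genes had a member at almost none of their promoters. Of 43 epidermal genes with H3K4me3 at the promoter, 1 had a member, the transcription factor gene Grhl2 (2037 bp), and 2 had ordinary peaks, although their H3K4me3 peaks were long (median of the widest per gene 2202 bp, against 1321 bp over all genes with H3K4me3). So 1 of the 3 with a marked MOF peak had a broad one, where the share over all such genes was 24.0%. Away from promoters, 3 members had a gene of the epidermal list as the nearest. These lay 41042 bp from the nearest start of Trp63, the p63 transcription factor gene, in an intron of it (1844 bp wide), 6136 bp from that of the desmoplakin gene Dsp (1652 bp) and 24626 bp from that of Zfp750 (1839 bp). Another, of 1602 bp, lay 35070 bp from the start of Klf4, which is on the immediate-early list. A member of 2665 bp lay 6858 bp from the start of the keratin gene Krt74, which is not on the epidermal list. No member was at the promoters of the melanocyte genes (0 of 5 with H3K4me3), the Langerhans and immune genes (0 of 1) or the dermal fibroblast and endothelial genes (0 of 4). These lists are too short to be told apart from the 9.57% share of all genes with H3K4me3. As a check of the tissue, both marks were at the promoters of Krt14, Sfn and Perp among 8 keratinocyte markers, of Mitf and Pmel among 9 melanocyte markers, of 0 of 10 immune markers and of Dcn among 10 fibroblast and endothelial markers.

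**Figure D5:**
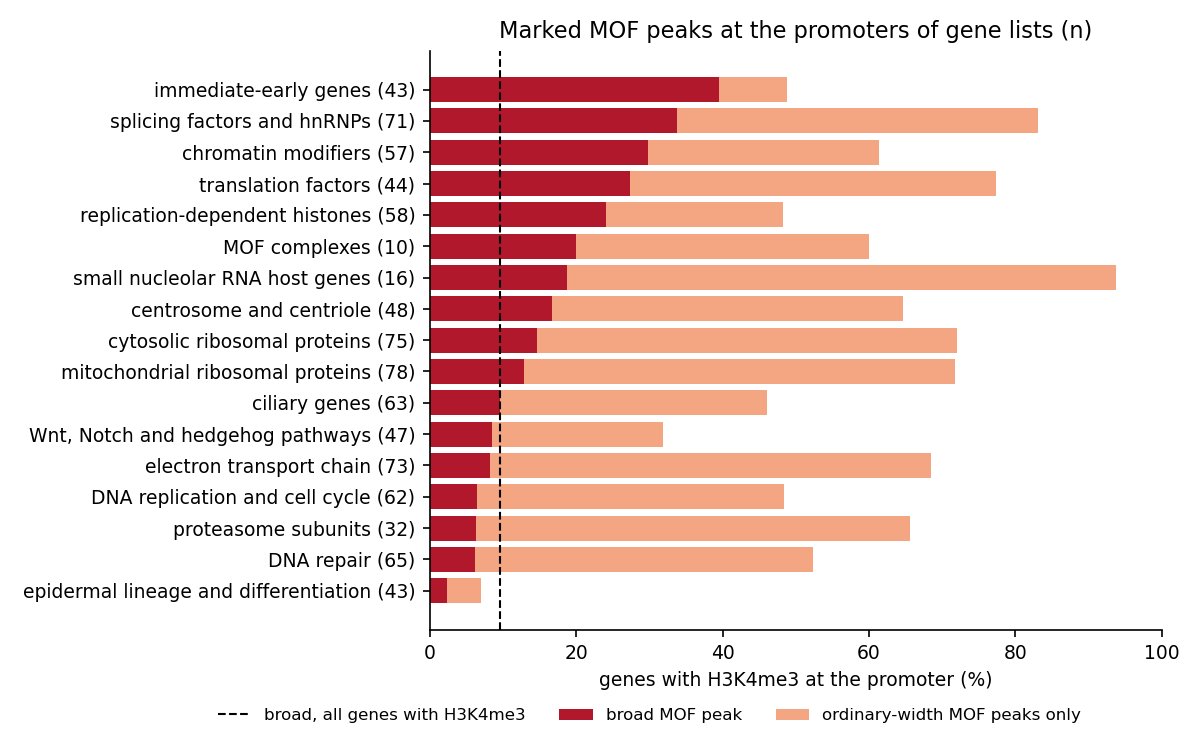
Share of genes with H3K4me3 at the promoter (%, number of genes in brackets) that had a broad MOF peak (red) and, stacked on it, ordinary marked MOF peaks only (orange), for the lists with at least 10 such genes. The dashed line is the broad share of all genes with H3K4me3, 9.57%. Immediate-early genes reach 39.5% broad with little orange, and electron transport chain genes 8.22% broad with 60.3% orange.

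Away from promoters lay 201 members. Of these, 30 had a TSS within 2.5 kb and 171 did not, with 106 of the latter intergenic, 59 in introns and 6 in exons by their centre. A transcript start of the wider GENCODE M21 annotation lay inside 30 of the 171. These 171 members were about as wide as those at promoters (median 1784 against 1837 bp), but their H3K4me3 peaks were shorter (772 against 1637 bp), with fold enrichments of 6.54 and 7.01. The widest without a promoter, after the Rn18s-rs5 locus, were 3101 bp wide 4796 bp from the start of AI839979, 2910 bp over Junb, 2856 bp wide 75707 bp from 5033430I15Rik and 2780 bp wide 6065 bp from Rpp25l. H3K4me3 covered 6.45% of the first of these and 85.8% of the Junb member.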

How the data were processed

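Per the labels and the study's methods, MOF ChIPseq reads were single-end and Cut&Run reads paired-end. The authors aligned both to mm10 with Bowtie2 and called peaks per library with MACS2. A control library was not given in the sources used here. The deposited MOF list held positions, a score of unstated scale and inner blocks. The deposited H3K4me3, H3K27ac and Rfx2 lists held the authors' fold enrichment, −log10 p-value, −log10 q-value and summit. The study's reporting form gives the reads of each library, which no list holds, so no value here is set against depth. It also counts fewer MOF peaks than this list holds, and whether the list was its final call is not known. The H4K16Ac, H3K4me1 and remaining libraries were not used here. The H3K4me3 list is attached to the repeat library, but its name lacks the mark of a repeat. The members and lists were chosen with earlier results of these data known.

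Overlaps needed 1 bp. No peak ended past a chromosome of GRCm38.p6, and annotation and sequences came from RefSeq on that build. Short RNA genes were left out of the TSSs. Gene symbols of 20 lists were resolved through RefSeq synonyms. Shares carry exact (Clopper-Pearson) and differences Newcombe 95% intervals. Named are the 10 widest members, the 5 with the highest MOF score, the 5 widest without a promoter, the 5 with the highest Rfx2 fold enrichment, 3 on either side of 1500 bp and the 2 widest per list. Of these, 1 member is not reported here. Other genes named, the CArG box and the CpG-rich runs were chosen after values were seen. Python 3.11.15, pandas 2.3.3 and scipy 1.17.1 were used. In a test on simulated data, 0 of 2000 overlap counts departed from bedtools 2.31.1.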

Additional observations from a re-analysis of the deposited data

How the results depend on the processing

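No paired analysis was possible because the peaks of an antibody came in 1 list. Of 121 values recomputed under the alternatives, 74 kept their call: a share stayed inside the interval reported, and the interval of a difference still included 0, or still lay on the same side of it. Among these, 4 promoter differences turned negative with intervals that included 0, from -4.59 (2000 bp or more) to -0.0851. Values are members' shares in percent, and differences from ordinary peaks in points. With 2000 bp or more (398 members), members at a promoter were 44.0%, CpG-rich centres 55.8%, long CpG-rich runs 36.3%, genes with H3K4me3 that had a member 3.09%, chromatin modifiers 7.02%, electron transport chain 1.37% and splicing factors 11.3%. The NRF1 difference was -0.955 and that of paired promoters 1.99, both with intervals that included 0. With 50% of the MOF peak covered by each mark (686 members), promoters were 58.2% (difference 5.84, 1.79 to 9.81), paired promoters 22.4%, CpG-rich centres 79.4% (difference reversed to 5.59), long runs 38.1%, the Rfx2 difference 1.52 (0.0999 to 3.38, no longer including 0), genes 6.18% and immediate-early genes 9.30%. With the 50% most significant peaks of each mark (1002 members), promoters were 55.0%, CpG-rich centres 68.9% and genes 8.72%. With the 50% of MOF peaks of highest score (738 members), promoters were 52.0%, paired promoters 21.7%, CpG-rich centres 65.0% (difference -3.46, -7.35 to 0.315), long runs 34.8%, genes 6.05% and the electron transport chain 1.37%. Promoter windows of 1 kb and 2.5 kb on either side gave 79.9% (difference 3.85) and 85.6% (7.25), and protein-coding transcripts 45.3%. Paired starts within 500 bp gave 15.5% (difference 1.76). Rfx2 summits in the central 500 bp gave 0.894%, with the difference reversed to -0.824. At the H3K4me3 summit, CpG-rich windows were 66.0% (reversed to 1.75) and ETS 7.23%, with differences of -1.71 for ETS and -0.943 for NRF1. Annotated promoters, added after seeing the data, gave 81.1% CpG-rich (reversed to 1.59), ETS 9.85% and NRF1 5.30%. Stricter island criteria gave 16.2% long runs, and all alternatives for the long runs were added after seeing the data. Leaving out peaks with more than 50% repeated stretches, added as well, changed no call. It removed few peaks (1229 members and 4735 ordinary peaks stayed), so it could hardly change one. The members with the highest MOF scores stayed in. The cause of the changes was not tested, beside the smaller sets and moved windows themselves. Without reads per peak, what depth limits in each list could not be measured.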

Other observations

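The X chromosome was outside the rule. It held 18 MOF peaks of 1500 bp or more, 11 of them with both marks. Of 456 genes on it with H3K4me3 at the promoter, 12 had such a broad MOF peak (2.63%, 95% exact interval 1.37 to 4.55%). On chromosomes 1 to 19 the share was 9.57%, with 6.90% on chromosome 6 and 11.9% on chromosome 11 as the lowest and highest. The study used animals of both sexes, and the makeup of each library by sex was not given in the sources used here. The mitochondrial sequence held 3 peaks of this width, 2 of them with both marks, and the Y chromosome 6, 1 of them with both. Members were mostly single along the chromosomes: of 1212 gaps between neighbouring members, 35 were under 20 kb and 3 under 5 kb.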
